A study of Rattus norvegicus with 6 samples.

Results

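A set of 10 genes of cyclic nucleotide phosphodiesterases, Pde1a, Pde1b, Pde1c, Pde2a, Pde4a, Pde4b, Pde4d, Pde7b, Pde8b and Pde10a, was followed in sensory tissue of rats with painful diabetic neuropathy (PDN) and of control rats. They were taken by gene name from a table of 22536 genes, and all 10 were found, each in 1 row. RNA was sequenced from 3 PDN and 3 control rats, all male, in libraries that the labels call sensory neuron and the series title places in the dorsal root ganglion. The strain and age of the rats, the way diabetes was induced and any treatment of the controls are not stated by the labels. The study's question, from its design text and title, is which genes differ in expression in PDN. The members were picked with the PDN and control values known, and Pde1c had already been named for a small p-value in this comparison. Their group differences are therefore given as a description.

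Phosphodiesterases break down the second messengers cAMP and cGMP and so set how long and how far a signal from an adenylyl or guanylyl cyclase lasts in a cell. In nociceptive neurons cAMP is known to raise excitability through protein kinase A, the exchange factors of the Epac family and the pacemaker (HCN) channels. The messenger cGMP acts through protein kinase G. The families differ in substrate and control. PDE1 enzymes cleave both messengers and are switched on by calcium and calmodulin. PDE4, PDE7 and PDE8 are specific for cAMP, PDE2 and PDE10 cleave both, and PDE5, PDE6 and PDE9 are specific for cGMP.

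Many phosphodiesterase genes have several start sites, and the transcription factor CREB, a target of protein kinase A, binds cAMP response elements in promoters. Start sites of 8 of the 10 genes, 18 in all, were listed in the RefSeq promoter table (build GRCr8), with 5 for Pde4d, 4 for Pde4a, 2 each for Pde2a, Pde4b and Pde10a, and 1 each for Pde1a, Pde1c and Pde8b. Pde1b and Pde7b were not matched by symbol. The palindromic element TGACGTCA was in 0 of the 18 windows of 250 bases before a start, against 1.59% of 33469 such windows over all genes. Its core, TGACG on either strand, was in 5 of the 18 (27.8%), against 18.2% over all genes, in windows of Pde4a, Pde4d and Pde10a. The windows below are those of the 3 genes whose PDN values lay above all control values, followed by the 1 of 2 windows of Pde10a and the 2 of 5 of Pde4d that hold the core, with the core in capitals (CGTCA where it lies on the other strand). Windows are written 5′ to 3′ on the gene's strand.
Pde1c, chr4:87108135-87108384 (minus strand): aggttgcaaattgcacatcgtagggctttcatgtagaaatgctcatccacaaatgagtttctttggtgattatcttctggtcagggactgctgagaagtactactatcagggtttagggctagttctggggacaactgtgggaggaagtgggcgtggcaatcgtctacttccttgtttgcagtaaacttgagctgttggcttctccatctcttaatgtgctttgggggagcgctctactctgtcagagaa
Pde1a, chr3:85431779-85432028 (minus strand): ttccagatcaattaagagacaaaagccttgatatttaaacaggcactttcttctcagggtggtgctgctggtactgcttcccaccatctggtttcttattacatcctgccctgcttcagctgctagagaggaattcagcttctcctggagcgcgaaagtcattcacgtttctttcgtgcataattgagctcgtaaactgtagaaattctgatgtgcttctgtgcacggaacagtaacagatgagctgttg
Pde8b, chr2:28116052-28116301 (minus strand): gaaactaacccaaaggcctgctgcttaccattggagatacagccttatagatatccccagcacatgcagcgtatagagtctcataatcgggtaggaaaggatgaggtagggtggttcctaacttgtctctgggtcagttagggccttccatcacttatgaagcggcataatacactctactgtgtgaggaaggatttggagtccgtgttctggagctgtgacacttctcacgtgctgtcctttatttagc
Pde10a, chr1:54765669-54765918 (minus strand): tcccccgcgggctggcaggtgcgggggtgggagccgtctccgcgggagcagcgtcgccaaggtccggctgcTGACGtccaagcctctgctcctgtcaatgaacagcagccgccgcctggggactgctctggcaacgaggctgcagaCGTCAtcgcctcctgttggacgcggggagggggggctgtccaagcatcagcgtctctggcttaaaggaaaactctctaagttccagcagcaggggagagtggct
Pde4d, chr2:42592499-42592748 (plus strand): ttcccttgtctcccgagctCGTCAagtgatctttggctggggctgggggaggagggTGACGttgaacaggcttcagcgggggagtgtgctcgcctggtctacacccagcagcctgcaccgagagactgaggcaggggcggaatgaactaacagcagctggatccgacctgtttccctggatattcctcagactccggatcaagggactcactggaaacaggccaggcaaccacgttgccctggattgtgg
Pde4d, chr2:42767367-42767616 (plus strand): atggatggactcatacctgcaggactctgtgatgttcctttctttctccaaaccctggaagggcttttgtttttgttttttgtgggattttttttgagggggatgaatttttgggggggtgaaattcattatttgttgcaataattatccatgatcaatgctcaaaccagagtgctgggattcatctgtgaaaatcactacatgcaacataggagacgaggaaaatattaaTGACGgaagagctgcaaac
The windows of Pde1c, Pde1a and Pde8b held no match to the core, which says only that these letters are not in these bases. The 2 windows of Pde4a that held the core are not printed. The Pde10a window shown and the first of Pde4d held 2 cores each and the second of Pde4d held 1. These coordinates belong to GRCr8 and not to the build of the deposited table, which no label or header names.

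The libraries rest on about 51855000 to 62785000 fragments each, as far as this can be derived from the deposited tables. The label of the tissue was checked against marker genes: all 14 sensory neuron markers were present, with means of at least 21.2 FPKM (fragments scaled to transcript length and library size). Markers of glia, vessels, fibroblasts and macrophages were present too, so the tissue was not neurons alone, while of 6 markers of central nervous tissue Olig2 was at 0 in all libraries and none reached the level for testing. Skeletal muscle markers summed to 490 FPKM in control 2 and 157 in PDN 3, 30.3 in PDN 1 and no more than 2.02 in the other 3 libraries.

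All 10 genes were expressed, over a 20.1-fold range in mean level. FPKM is scaled by length, so levels can be set side by side between genes, though the lengths that the authors used were not checked. Pde1c was the most abundant, at a mean of 21.3 FPKM over 6 libraries, above 73.4% of the 13282 genes tested. Pde2a, the enzyme that cGMP stimulates, was at 16.8 and Pde4d, a cAMP-specific enzyme, at 11.7. A middle group held Pde7b at 7.61, Pde4b at 7.27, Pde10a at 6.59, Pde1a at 6.06 and Pde8b at 4.49 FPKM. Pde4a, at 1.67, and Pde1b, at 1.06, were far lower. The median tested gene had a mean of 9.35 FPKM.

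Some neighbours in this order could not be told apart by their spread. Pde1c was above Pde2a in 5 of 6 libraries, the exception being control 3, and the ranges of these genes overlapped. Pde7b was above Pde4b in 3 of 6 libraries, and Pde10a was above Pde1a in 4 of 6. Pde4b was above Pde10a, and Pde1a above Pde8b, in all 6 libraries, though their ranges overlapped. The ranges of Pde2a and Pde4d, of Pde4d and Pde7b, of Pde8b and Pde4a, and of Pde4a and Pde1b did not overlap. All 10 ranks were the same by the median of the 6 libraries and by the mean of controls alone, while in PDN alone Pde4b stood above Pde7b and the other 8 ranks were kept.

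**Figure D1:**
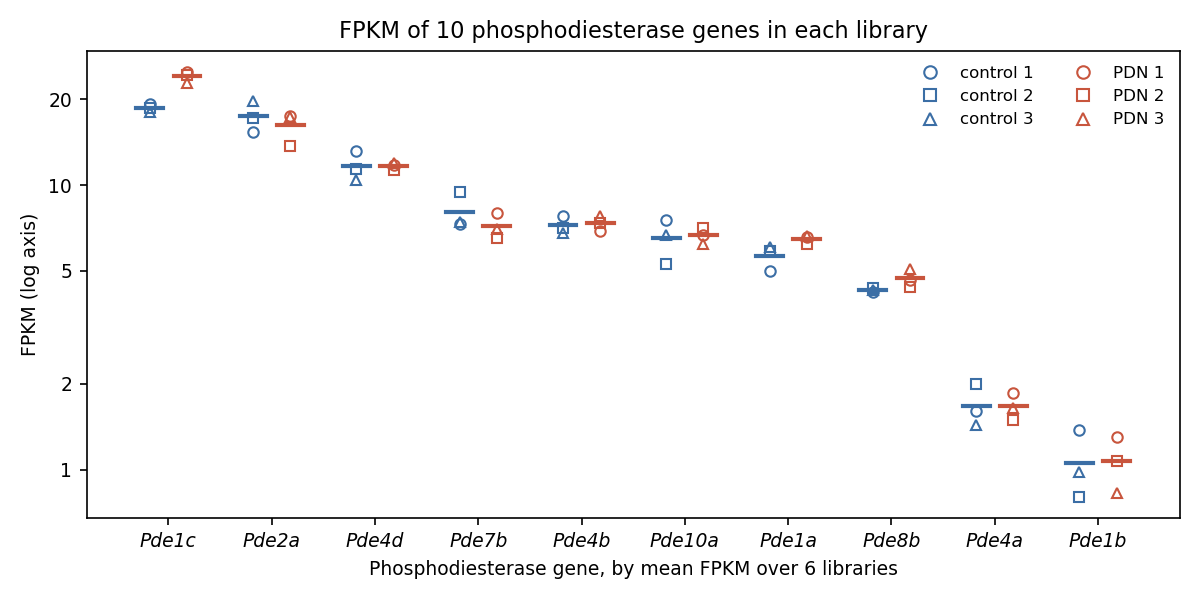
FPKM of the 10 phosphodiesterase genes in each library on a log axis, ordered by the mean over 6 libraries, with controls in blue, PDN in red and a bar at each group mean. The 3 PDN points of Pde1c lie between 22.9 and 25.0 FPKM, above the 3 control points between 18.0 and 19.2, while most other genes overlap.

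Group differences are PDN minus control of log2(FPKM + 1), a scale that compresses changes at low FPKM. They come from a limma fit over the 13282 genes that reached 1 FPKM in 3 or more libraries. All 10 genes passed that filter. Pde1b did so with exactly 3 libraries, control 1, PDN 1 and PDN 2, so it lies at the edge of the filter but not through 1 group. None of the 10 passed an adjusted p of 0.05 (Benjamini-Hochberg over all genes tested) in limma, where 0% of all genes did, and 1 of the 10, Pde1c, had an unadjusted p under 0.05, as did 4.72% of all genes. The estimate was higher in PDN for 7 of the 10 and lower for 3, with a median log2 difference of 0.02, against a median of -0.02 and 43.4% of estimates above 0 over all genes. With median-of-ratios or upper-quartile scaling the count was 8 of 10, and with control 2 and PDN 3 both left out it was 5 of 10. With 1 library left out it ran from 4 to 8, being 4 without control 3, and the median was 0.09 without control 1 and -0.01 without control 3. PDN values lay above all control values in 3 of the 10, as in 3.69% of all genes, and below them in 0, as in 6.24%. These counts use the comparison the genes were picked from, and nothing is read from them.

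Pde1c, of the calcium- and calmodulin-stimulated family, is known to cleave cAMP and cGMP about equally well. It was at 25.0, 24.4 and 22.9 FPKM in PDN 1, 2 and 3 and at 19.2, 18.6 and 18.0 in control 1, 2 and 3. Every PDN library was above every control, and the gap between the groups was wider than the spread within either. The means were 24.1 ± 1.07 and 18.6 ± 0.618 FPKM (± SD of 3 libraries), a ratio of 1.29. The log2 difference was 0.35 ± 0.07 (SE; 95% interval 0.20 to 0.50). The adjusted p in limma was 0.594, so the difference did not pass over all genes. In the 6 fits with a library removed the difference stayed between 0.33 and 0.39, and over all 15 alternatives the adjusted p lay between 0.456 and 1.00. Without the muscle-rich libraries, control 2 and PDN 3, its adjusted p was 0.805. Pde1c lies on chromosome 4, 86359820 to 86630543 as the table gives it (ENSRNOG00000012337).

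The other PDE1 genes, whose enzymes are known to prefer cGMP, stood lower. Pde1a was at 6.59, 6.20 and 6.60 FPKM in PDN 1, 2 and 3 and at 5.0, 5.89 and 6.08 in control 1, 2 and 3. The lowest PDN value was just above the highest control value, and control 1 was the lowest of all. The gene lies on chromosome 3, 66803247 to 66885094 as the table gives it (ENSRNOG00000054212). Its log2 difference was 0.17 ± 0.09 (SE; interval -0.04 to 0.38; adjusted p = 0.999 in limma), and without control 1 it was 0.10. Pde1b was at 1.31, 1.07 and 0.830 FPKM in PDN 1, 2 and 3 and at 1.37, 0.804 and 0.980 in control 1, 2 and 3. Its groups overlapped in full, library 1 was the highest in each group, and the difference was 0.01 ± 0.14 (SE). As a coefficient of variation over 6 libraries, its spread of 22.5% was the widest of the 10, against a median of 9.76% over all genes tested.

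The PDE1 genes summed to 32.8, 31.6 and 30.3 FPKM in PDN 1, 2 and 3 and to 25.6, 25.3 and 25.1 in control 1, 2 and 3. Pde1c made up most of that sum, and it alone took 20.8% to 22.8% of the FPKM of the 20 phosphodiesterase genes found in PDN and 16.6% to 18.4% in controls. Without Pde1c the other 19 genes summed to 85.6 ± 2.60 FPKM in PDN against 88.2 ± 2.76 in the controls (± SD of 3 libraries), and those groups overlapped. Calmodulin, which activates PDE1 enzymes, is encoded by several genes that were abundant here. Calm3 stood at 502 ± 15.2 FPKM in PDN and 484 ± 11.1 in the controls, and Calm2 at 108 ± 4.25 and 102 ± 14.7 (± SD of 3 libraries).

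**Figure D2:**
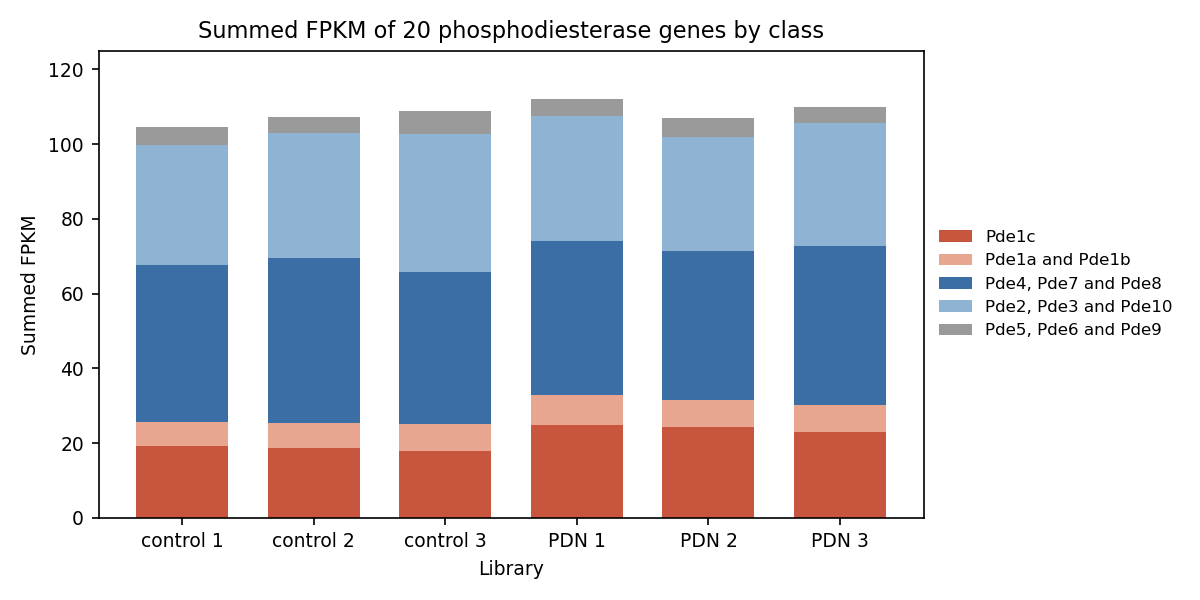
Summed FPKM of 20 phosphodiesterase genes in each library, stacked by class from 0. The total runs from 105 to 112 FPKM, and the lowest segment, Pde1c, is 18.0 to 19.2 in controls and 22.9 to 25.0 in PDN.

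Pde2a, which cleaves both messengers and lets cGMP speed the loss of cAMP, was at 17.5, 13.8 and 17.3 FPKM in PDN 1, 2 and 3 and at 15.4, 17.2 and 19.7 in control 1, 2 and 3. The groups overlapped, with PDN 2 the lowest and control 3 the highest library. The log2 difference was -0.10 ± 0.12 (SE), with an interval of -0.38 to 0.18, and it was -0.01 without control 3 and 0.01 without PDN 2. Pde10a, an enzyme of both messengers best known from neurons of the striatum, was at 6.69, 7.07 and 6.22 FPKM in PDN 1, 2 and 3 and at 7.56, 5.30 and 6.70 in control 1, 2 and 3. Its control libraries spanned the PDN libraries on both sides. The log2 difference was 0.04 ± 0.12 (SE), and it ran from -0.09 without control 2 to 0.14 without control 1.

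Of the cAMP-specific PDE4 genes, the targets of rolipram, Pde4d was the most abundant. It was at 11.8, 11.3 and 11.9 FPKM in PDN 1, 2 and 3 and at 13.2, 11.4 and 10.4 in control 1, 2 and 3. The means were almost equal, at 11.7 ± 0.312 and 11.7 ± 1.38 FPKM (± SD of 3 libraries), and the controls were more spread than the PDN libraries. Pde4b was at 6.87, 7.34 and 7.77 FPKM in PDN 1, 2 and 3 and at 7.80, 7.07 and 6.76 in control 1, 2 and 3. It had the smallest coefficient of variation of the 10, at 6.13%. Pde4a was at 1.86, 1.49 and 1.65 FPKM in PDN 1, 2 and 3 and at 1.60, 2.0 and 1.44 in control 1, 2 and 3. The 95% intervals of the log2 difference were -0.21 to 0.22 for Pde4d, -0.17 to 0.22 for Pde4b and -0.27 to 0.27 for Pde4a, so true differences up to these bounds remain possible. The sign of the Pde4a estimate, -0.003, turned with both scalings. Summed with Pde4c, the PDE4 genes stood at 23.0 ± 0.367 FPKM in PDN against 23.0 ± 1.67 in the controls (± SD of 3 libraries).

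The other cAMP-specific members belong to the PDE7 and PDE8 families, which have a high affinity for cAMP. Pde7b was at 8.01, 6.52 and 7.03 FPKM in PDN 1, 2 and 3 and at 7.28, 9.42 and 7.40 in control 1, 2 and 3. Control 2, the library richest in muscle markers, stood above the other 5, while PDN 3, the next richest, was below 4 of the other 5. The log2 difference was -0.14 ± 0.12 (SE), and it was -0.03 without control 2. The part of muscle RNA in the Pde7b value was not tested. Pde8b was at 4.64, 4.39 and 5.08 FPKM in PDN 1, 2 and 3 and at 4.20, 4.33 and 4.28 in control 1, 2 and 3. Its controls lay close together and just below the lowest PDN value, that of PDN 2. The gene lies on chromosome 2, 24719976 to 24923128 as the table gives it (ENSRNOG00000010280). The log2 difference was 0.11 ± 0.08 (SE; interval -0.08 to 0.30; adjusted p = 0.999 in limma).

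**Figure D3:**
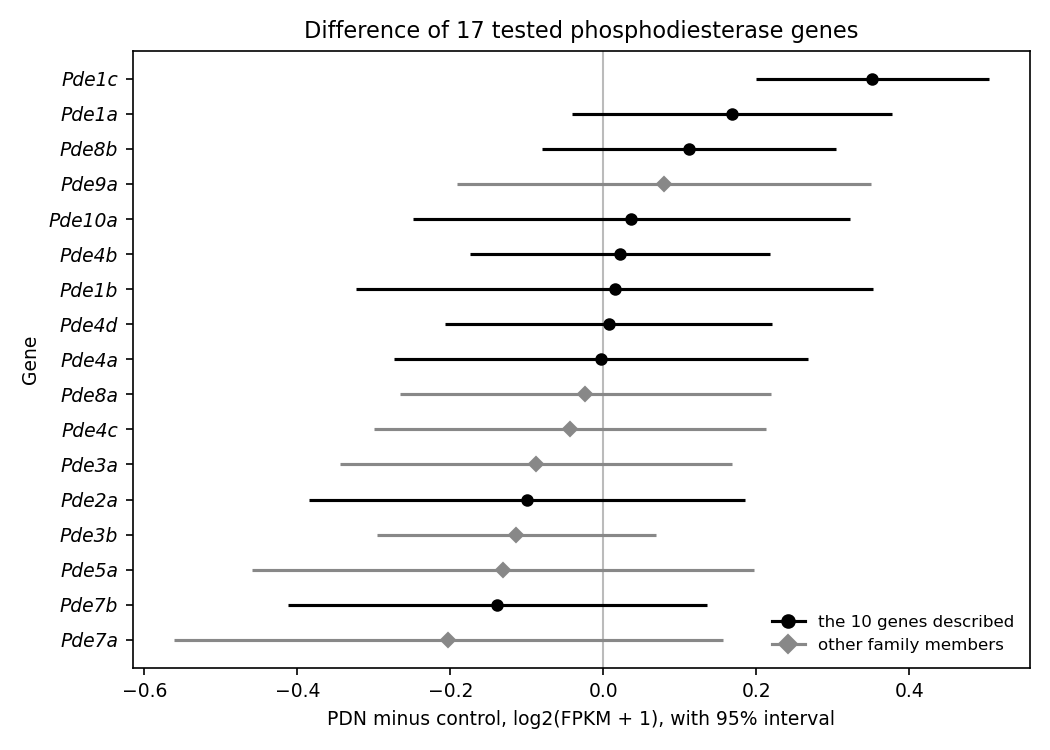
Difference in log2(FPKM + 1), PDN minus control, with 95% intervals from limma, for the 10 genes described (black circles) and 7 other tested phosphodiesterase genes (grey diamonds). Only the interval of Pde1c, 0.20 to 0.50, lies wholly on one side of 0, and no gene passed an adjusted p of 0.05.

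The genes did not order the libraries alike. Control 1 held the highest value of 4 of the 10 genes and the lowest of 2, and control 3 the lowest of 4. The signs of 4 differences, those of Pde1c, Pde1a, Pde8b and Pde7b, were the same in every fit that left out 1 library, and those of the other 6 turned in at least 1 such fit. For Pde1c, Pde1a and Pde8b this was fixed in advance, since every PDN value lay above every control value. It adds nothing to that separation.

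**Figure D4:**
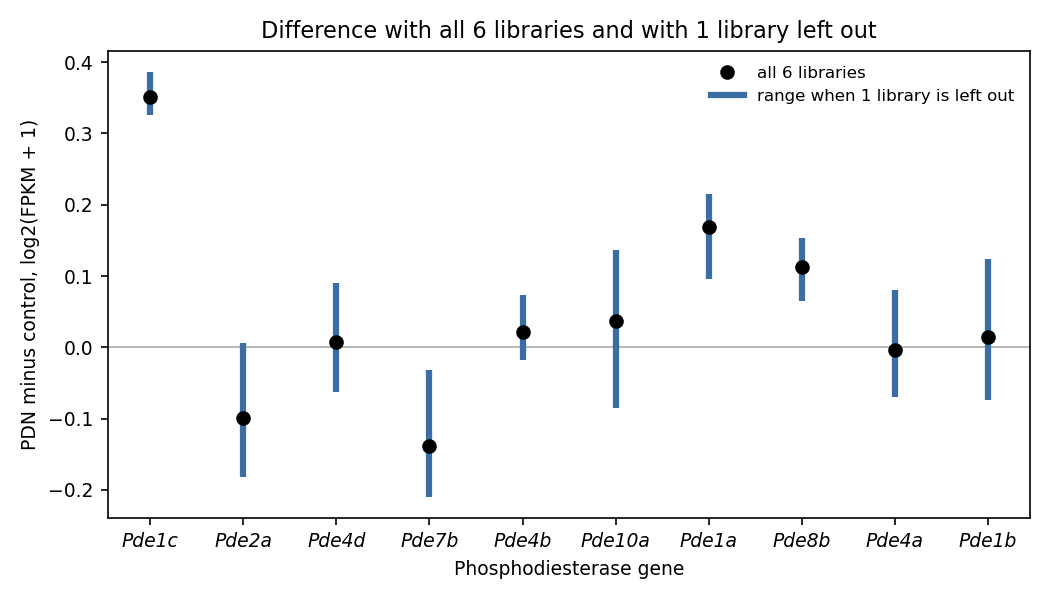
Difference in log2(FPKM + 1), PDN minus control, for each of the 10 genes, with all 6 libraries (points) and as the range when each library is left out in turn (bars). The bars of Pde1c, Pde1a, Pde8b and Pde7b stay on one side of 0, and the other 6 cross it. The bars of Pde1c, Pde1a and Pde8b could not cross 0, since their groups did not overlap.

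Of 11 further catalytic phosphodiesterase genes, 10 were found by name and 7 passed the filter. Their estimates were lower in PDN for 6 and higher for 1, against 43.4% above 0 over all genes. Their median log2 difference was -0.09, against -0.02 over all genes. None passed in limma, where 0% of all genes did, and 0 had an unadjusted p under 0.05, against 4.72%. Pde3b, a cAMP phosphodiesterase that insulin activates in fat cells, was the most abundant, with 7.08 ± 0.106 FPKM in PDN and 7.75 ± 0.574 in the controls (± SD of 3 libraries). Pde7a was at 3.04 ± 0.364 against 3.69 ± 0.865, Pde8a at 3.21 ± 0.453 against 3.27 ± 0.177, Pde5a, the target of sildenafil, at 2.77 ± 0.153 against 3.18 ± 0.791, and Pde3a at 2.34 ± 0.0974 against 2.56 ± 0.419 FPKM. Pde4c was at 2.34 ± 0.253 against 2.44 ± 0.309 FPKM in its main row, while a second row of that name was at 0 in 5 libraries. Pde9a was at 1.42 ± 0.246 against 1.28 ± 0.154 FPKM. None of these separated the groups, against 9.93% of all genes that did. The photoreceptor genes Pde6a, Pde6b and Pde6c stayed below 0.5 FPKM in every library, and Pde11a was not analysed here.

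The cGMP-specific genes together summed to 4.64 ± 0.424 FPKM in PDN against 4.98 ± 0.871 in controls, and the cAMP-specific genes to 41.2 ± 1.43 and 42.3 ± 1.76 (± SD of 3 libraries). Thus cGMP-specific genes held 3.92% to 5.47% of the family's FPKM in any library. Some genes carry the name without being cyclic nucleotide phosphodiesterases. Pde4dip, an anchoring protein of the centrosome and Golgi, stood at 24.3 ± 1.86 FPKM in PDN and 22.7 ± 3.24 in the controls, Pde6d, a carrier of prenylated proteins, at 23.5 ± 1.67 and 24.1 ± 1.10, and Pde12, a mitochondrial enzyme of RNA, at 9.07 ± 0.776 and 8.86 ± 0.313 (± SD of 3 libraries). Pde6g and Pde6h, inhibitory subunits of the photoreceptor enzyme, reached at most 0.714 and 0.149 FPKM.

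The genes that make, sense and anchor cyclic nucleotides were set beside the family in 10 lists of 82 names, of which 75 were found and 56 tested. None of the 56 passed in limma in either direction, 2 had an unadjusted p under 0.05, against 4.72% of all genes, and 29 estimates were higher and 27 lower in PDN, with a median of 0.00. Over all genes 43.4% of estimates were above 0. The groups did not overlap in 5 of the 56 (8.93%), against 9.93% of all genes. These 5, named after their values were seen, were Npr2 and Popdc3 on the higher side and Adcy1, Adcy3 and Crtc3 on the lower side. Popdc3, which encodes a cAMP-binding membrane protein, was at 8.47 ± 0.0976 FPKM in PDN and 7.28 ± 0.932 in the controls, and Crtc3, a CREB coactivator, at 3.0 ± 0.745 and 4.08 ± 0.264 (± SD of 3 libraries).

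Among the cyclases that feed the phosphodiesterases, 8 of 10 adenylyl cyclases were tested, with 3 estimates higher and 5 lower in PDN. Adcy5 stood at 11.7 ± 0.601 FPKM in PDN and 11.8 ± 0.834 in the controls, Adcy1, a calcium-stimulated cyclase, at 9.97 ± 0.884 and 11.9 ± 1.22, and Adcy3 at 10.4 ± 0.111 and 11.5 ± 0.618 (± SD of 3 libraries). Of the guanylyl cyclases 4 were tested, with 3 estimates higher and 1 lower. Npr2, the receptor of C-type natriuretic peptide, stood at 30.8 ± 0.446 FPKM in PDN and 28.2 ± 1.05 in the controls, while the soluble cyclase subunits Gucy1a2 and Gucy1a1 were at 22.6 ± 1.21 and 21.5 ± 4.36 and at 2.81 ± 0.213 and 2.59 ± 0.469 (± SD of 3 libraries).

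The leading genes of protein kinase A, its anchors and the pacemaker channels were more abundant than any phosphodiesterase. Of 9 genes of protein kinase A and its inhibitors, 2 had higher and 7 lower estimates in PDN, led by the regulatory subunit Prkar1a at 209 ± 7.36 FPKM in PDN against 205 ± 2.56 in controls, Prkar1b at 123 ± 14.9 and 131 ± 7.73 and the catalytic subunit Prkaca at 99.0 ± 2.62 and 95.2 ± 3.48 (± SD of 3 libraries). Of 7 other tested effectors, 3 had higher and 4 lower estimates, with the pacemaker channel gene Hcn2 at 49.1 ± 3.58 and 48.6 ± 2.90 FPKM and the Epac gene Rapgef4 at 30.9 ± 1.35 and 31.7 ± 0.836. Prkg2 was the 1 tested gene of protein kinase G, at 3.22 ± 0.282 and 3.05 ± 0.181 FPKM. Of 10 tested anchoring proteins of protein kinase A, 6 had higher and 4 lower estimates, with Akap12 at 149 ± 10.5 and 145 ± 19.3 FPKM, Akap11 at 112 ± 8.55 and 108 ± 8.15 and Akap6 at 95.8 ± 7.42 and 94.0 ± 9.61.

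In the CREB list 4 of 7 tested genes had higher and 3 lower estimates. Creb1 stood at 11.1 ± 0.689 FPKM in PDN and 10.6 ± 1.21 in the controls, the coactivator Crebbp at 9.57 ± 1.13 and 9.08 ± 0.856, and Atf1 at 9.15 ± 1.31 and 9.42 ± 0.868 (± SD of 3 libraries). Of 5 tested binding partners of phosphodiesterases, 3 had higher and 2 lower estimates, with the PDE4 partners Rack1 at 124 ± 13.0 and 128 ± 14.3 FPKM and Arrb1 at 29.7 ± 1.00 and 28.6 ± 0.604. The exporter genes Abcc5, at 52.0 ± 1.72 and 51.8 ± 4.03 FPKM, and Abcc4, at 6.82 ± 0.669 and 6.98 ± 0.227, differed by less than their spread.

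The summed levels of some cell type markers also differed by group. The 14 sensory neuron markers summed to 8625 to 9779 FPKM in PDN and 8764 to 10065 in controls, with 8 estimates higher and 6 lower in PDN. All 8 fibroblast markers had lower estimates in PDN, and their sum, 333 to 373 FPKM in PDN against 389 to 430 in controls, did not overlap. The same held for pericyte and smooth muscle markers, with lower estimates in 7 of 7 tested markers and sums of 122 to 139 against 144 to 167 FPKM. Mcam, at a mean of 76.0 FPKM, made up much of that sum, and its own groups overlapped. Only 1 of the 7, Acta2, had groups that did not overlap. Macrophage markers had lower estimates in 6 of 7 tested, with sums of 25.5 to 35.8 against 35.4 to 49.4 FPKM. Of these, 4 were lower without overlap, Csf1r, Aif1, Adgre1 and Cx3cr1, while the groups of C1qa, C1qb and Mrc1 overlapped. Red blood cell markers had lower estimates in 3 of 3, with sums of 74.5 to 178 against 157 to 233, and 1 was lower without overlap. Of the fibroblast markers 3 of 8 were lower without overlap. Dcn, at a mean of 151 FPKM the largest part of the fibroblast sum, had overlapping groups. Estimates were also lower for 6 of 7 endothelial markers tested, with overlapping sums of 51.2 to 60.5 against 52.4 to 67.3 FPKM. The exception, Cldn5, was the most abundant of them and was higher in PDN without overlap, at means of 26.8 against 21.6 FPKM. Of the 7, 2 were lower without overlap. Satellite glia markers had lower estimates in 6 of 8, with overlapping sums of 1663 to 1802 against 1617 to 1882 FPKM. Apoe, at a mean of 1505 FPKM, made up most of that sum, and its groups overlapped. Kcnj10 and Ptprz1 were lower without overlap. Schwann cell markers had 4 higher and 4 lower estimates, with overlapping sums of 3444 to 4168 against 3489 to 4274 FPKM. The groups of 1 Schwann cell marker did not overlap on the lower side, and those of 2 sensory neuron markers on the higher side. By comparison, 43.4% of estimates over all genes were above 0. PDN values lay below all control values in 6.24% of all genes and above them in 3.69%. No list other than that of central nervous tissue had a marker found and at 0 in all libraries. Their part in the values of Pde1c, Pde1a and Pde8b was not tested, and in tissue RNA fewer cells of a type and less RNA per cell cannot be told apart.

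The 3 tested genes whose pattern over the 6 libraries was most like that of Pde1c were Arid4b (Pearson r = 0.994 on the log2 scale), Aldh18a1 (r = 0.980) and Slc35f2 (r = 0.977). Aldh18a1 was at 0.968 FPKM or less in every control and at 3.37 or more in every PDN library. It thus passed the filter only through the group where it was higher. Of 13281 genes compared, 80 had an r of at least 0.9. With 6 libraries that share their groups, these values are a description of the pattern and have no test. Arid4b was at 7.57, 7.51 and 7.15 FPKM in PDN 1, 2 and 3 and at 6.63, 6.41 and 6.41 in control 1, 2 and 3. It had its highest value in PDN 1 and its lowest PDN value in PDN 3, as did Pde1c. Arid4b was picked for its likeness over these same libraries, so the shared order adds nothing to the correlation.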

How the data were processed

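RNA of 3 PDN and 3 control rats was sequenced, from 1 µg of total RNA per strand-specific library, per the labels' protocols. The FPKM values were made by the authors, and per the file headers each has a gene name and a locus. No label or header names the aligner, the quantifier or the genome build. The authors deposited a second table named for read counts, whose whole numbers were treated as a score. Among its values above 1000, 54.5% to 54.9% per library equalled, within a relative tolerance of 0.001, FPKM times genomic span times 1 constant per library, and 0% lay above that product. The constants were read as the fragments behind the FPKM, a reading that was not tested. Of the 10 phosphodiesterase genes, Pde1b, Pde4a and Pde8b equalled the product in all libraries, Pde1c was at 13.3% to 13.7% of it and Pde4d at 0.706% to 0.803%. No counting interval was computed.

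The 13282 genes that reached 1 FPKM in 3 or more libraries entered a limma fit (version 3.58.1, R 4.3.3) of log2(FPKM + 1) on group, with a trend of variance on level. Intervals are at 95%. A library is taken as an animal, since the design text counts 3 rats per group. Nothing in the labels beyond that says the libraries are separate animals, and p-values measure only the spread between them. The members and lists were chosen with earlier results of these data known. Named genes were all members, all other phosphodiesterase genes, the 3 most abundant genes of each pathway list (some are not reported here), genes past the threshold, and the 3 genes most like Pde1c. Alternatives were another pseudocount (0.1), no filter, a stricter filter (5 FPKM), 2 scalings, robust empirical Bayes, a replicate block, each library left out, control 2 and PDN 3 left out, and the second table. Protein sequences were not used here. Windows before start sites come from RefSeq.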

Additional observations from a re-analysis of the deposited data

How the results depend on the processing

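No phosphodiesterase gene, and no gene of the pathway lists, passed an adjusted p of 0.05 in limma under any of the 15 alternatives. Over all genes the count of 0 was 1 without the filter, 1 with robust empirical Bayes, 9 with control 2 and PDN 3 both left out and 2 in the second deposited table, and 0 to 6 in the fits with 1 library removed. The median log2 difference of the 10 genes, 0.02, was between -0.0091 and 0.093 in those fits, the lowest without control 3 and the highest without control 1, and that of the 7 other phosphodiesterases, -0.09, from -0.16 to -0.02. The sign of the Pde1c difference was positive in 15 of 15 alternatives, with values of 0.33 to 0.39. Pde1a (15 of 15) and Pde8b (14 of 14) kept a positive sign and Pde7b (15 of 15) a negative one, down to -0.02 at its smallest. Since the groups of Pde1c, Pde1a and Pde8b did not overlap, most alternatives could not turn their signs. Only the 2 scalings and the second table could have done so. Pde7a turned from -0.20 to 0.02 in the second table. The cause was not tested in any of these. The replicate numbers showed no clear pairing of the libraries by the correlation of their deviations, which was 0.17, -0.12 and -0.09 for numbers 1, 2 and 3. The highest correlation of a control with a PDN library was 0.27, for control 2 with PDN 3, the muscle-rich libraries. With 3 libraries a group these values cannot exclude a pairing. With the replicate block 0 genes passed, the median of the 10 genes stayed at 0.02, and the adjusted p of Pde1c was 0.700. No interval for counting error can be given, since fragments per gene are not known, and with 3 animals a group the 95% intervals of the 10 genes leave room for differences of 0.22 or more in at least one direction.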
